A study of Mus musculus with 6 samples.

Results

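The genes described here are 40 genes of mitosis and the spindle, listed by name for their role in cell division, with earlier results of these data known. They were matched on the gene symbols of the deposited count table, and all of them were found among the 56092 symbols of that table. RNA-seq had been run on RAW264.7 cells, a mouse macrophage line, in 2 groups of 3 libraries. The shNC group carried a stable lentiviral control short hairpin RNA and the shTrem2 group a hairpin against Trem2, a lipid-sensing receptor of macrophages. Cells of both groups had been infected with a vector that also encodes GFP, selected with puromycin, treated for 24 hours with 20 ng/mL of IL-4 to polarize them, and then exposed for another 24 hours to debris that was made by freezing and thawing TCMK-1 cells, a mouse kidney tubular epithelial line. The labels and methods do not say which hairpin the sequenced shTrem2 cells carried. They also do not say that the replicates were separate cultures, so the p-values measure only the spread between these libraries, which may be technical. The comparison asks how the level of each mitotic gene differed when Trem2 was knocked down in macrophages that were handling tubular debris.

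Mitosis is driven by cyclin-dependent kinase 1 bound to cyclin A or cyclin B, which is switched on by CDC25 phosphatases and assisted by Polo-like and Aurora kinases. Chromosomes attach to spindle microtubules through kinetochores, the spindle checkpoint delays anaphase until all are attached, and the anaphase-promoting complex then marks cyclin B and securin for destruction so that separase can cut cohesin. Transcripts of these genes are known to rise together in late S and G2 phase and to be low in cells outside the cycle. Their promoters are known for CCAAT boxes, bound by the factor NF-Y, and for the cell cycle genes homology region (CHR), bound by complexes of the MuvB core with B-MYB and FOXM1 or with p130 and E2F4. Promoter sequences from RefSeq on the mouse build GRCm38.p6 are therefore printed with the genes they belong to, each as the 100 bases before the annotated start site, read 5′ to 3′ on the gene's strand. Capitals mark matches to CCAAT or to TTTGAA or TTCGAA, the CHR letters searched, on either strand (ATTGG and TTCAAA are the first 2 of these read on the other strand).

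Libraries held between 16054486 and 18290532 estimated counts in shNC and between 19545744 and 19835186 in shTrem2, so all shTrem2 libraries were the deeper ones. No member had fewer than 311 counts in any library. Trem2 was lower in all 3 shTrem2 libraries, at 64.7, 63.2 and 80.2 CPM (counts scaled to the size of the library) against 114, 122 and 144 in shNC, a log2 fold change of -0.87 (SE 0.0939, adjusted p = 3.39e-06). Of 12 macrophage markers, 11 had more than 800 counts in every library. Summed over the list they had 6273 ± 524 CPM in shNC and 11768 ± 705 CPM in shTrem2, of which Lyz2 alone gave 2805 ± 356 and 7365 ± 544 CPM, and the median log2 fold change of the 11 was 0.37. Lyz2 (log2 fold change 1.39), Fcgr1 (0.85) and Csf1r (0.76) were called higher, Itgam (-0.78) was called lower, and Adgre1 was at -0.56 without reaching the fold limit, while Cd68 and Cd14 overlapped between groups. The part of these shifts in the results was not tested. The debris came from dividing epithelial cells, and of 17 tubular epithelial markers 7, among them Epcam, Cdh1, Krt8 and Krt18, were at 0 counts in every library. The 17 markers summed to between 17 and 25 counts in shNC and between 46 and 62 in shTrem2, of which Aqp1 gave 5 to 12 and 38 to 50. Without Aqp1 the sums were 11 to 17 and 7 to 12. The part of debris RNA in the results was not tested.

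The mitotic genes were higher in shTrem2 than in shNC as a group and without exception in direction. All 40 had an adjusted p under 0.05 and were higher (quasi-likelihood test of edgeR, adjusted by Benjamini and Hochberg's method over all 13528 genes tested), as were 28.8% of all tested genes. For 27 of the 40, or 67.5%, the fold change was also above 1.5, the study's criterion for a changed gene, against 9.46% of all tested genes, and these are called risen below. The other 13 were higher by less than 1.5-fold. None of the 40 was called lower, against 12.4% of all tested genes. All 3 shTrem2 libraries lay above all 3 shNC libraries for each of the 40, a separation that 32.1% of tested genes had. The median log2 fold change of the members was 0.74, or 1.67-fold, beside -2.84e-05 for all tested genes. Single members ranged from 0.25, or 1.19-fold, for Cenpa to 1.37, or 2.58-fold, for Kif20a. Ranked among all tested genes by log2 fold change, the members stood between percentiles 71.2 and 98.1, with a median of 92.5. In bulk RNA, a larger share of cells in late S phase, G2 phase or mitosis and more RNA of these genes per such cell cannot be told apart.

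**Figure D1:**
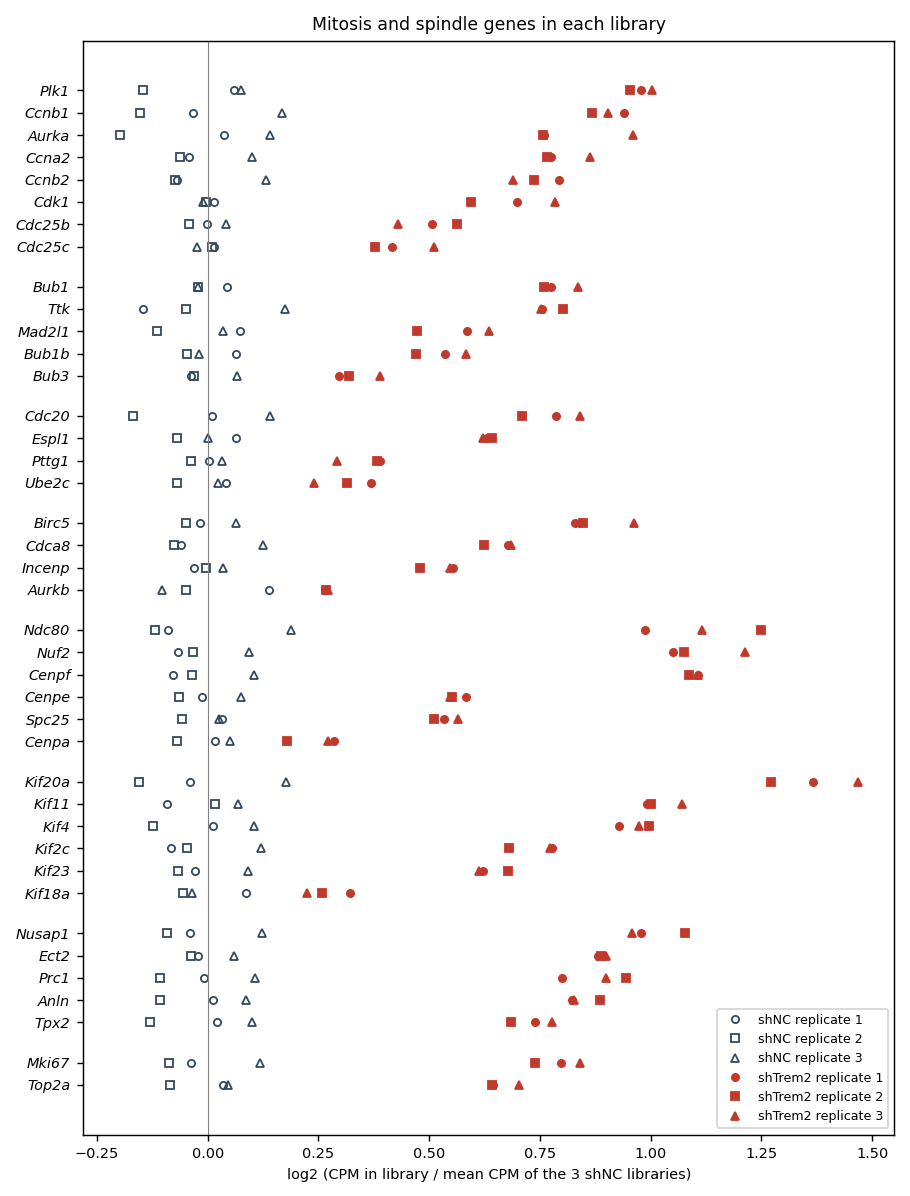
Level of each of the 40 genes in each of the 6 libraries, as the log2 ratio to the mean CPM of the 3 shNC libraries, with genes grouped by role (rows) and open symbols for shNC and filled symbols for shTrem2. Every filled symbol lies to the right of every open symbol of its gene, with the widest distance for Kif20a and the narrowest for Aurkb and Cenpa.

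Among the mitotic cyclins, CDK1 and the kinases that act with it, 6 of 8 genes rose, and the median log2 fold change of the 8 was 0.77. Cdk1, the kinase that starts mitosis, had 82.8, 81.8 and 81.4 CPM in the shNC libraries and 133, 124 and 141 CPM in the shTrem2 libraries. The groups did not overlap, and the log2 fold change was 0.69 (SE 0.0548, adjusted p = 1.79e-07). In limma fits on the FPKM values it was 0.45, under the 1.5-fold limit, and the shNC libraries were further apart on that scale, at 195, 147 and 138 FPKM. Ccnb1, which encodes the cyclin B1 subunit that activates CDK1, had 90.3, 83.0 and 104 CPM in shNC and 177, 169 and 173 CPM in shTrem2. Its groups were far apart, with a log2 fold change of 0.90 (SE 0.0675, adjusted p = 1.07e-07). Ccnb2, the other B-type cyclin of dividing somatic cells, rose by 0.74. The promoters of these 3 genes are shown for their CCAAT boxes with starts 32 or 33 bases apart.
Cdk1 (chr10:69352913-69353012, minus strand): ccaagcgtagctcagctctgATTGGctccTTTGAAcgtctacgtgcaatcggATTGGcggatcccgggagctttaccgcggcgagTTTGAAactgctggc
Ccnb1 (chr13:100786487-100786586, minus strand): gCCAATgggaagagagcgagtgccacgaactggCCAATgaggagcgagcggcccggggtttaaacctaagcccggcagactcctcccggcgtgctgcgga
Ccnb2 (chr9:70421555-70421654, minus strand): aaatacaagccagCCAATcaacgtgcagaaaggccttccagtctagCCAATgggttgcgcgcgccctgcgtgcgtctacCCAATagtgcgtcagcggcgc
In Cdk1 the CCAAT boxes nearest the start site (another lies at -208) begin at bases -80 and -48, 32 bases apart, and CHR matches begin at -71 and -15. In Ccnb1 the boxes begin at -99 and -67, also 32 bases apart. In Ccnb2 they begin at -87, -54 and -21, with 33 bases between each and the next. Its CHR matches begin at -167 and 5 bases after the start site, both outside the printed stretch.

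Ccna2, which encodes cyclin A2 of S phase and early mitosis, had 127, 125 and 140 CPM in shNC and 224, 223 and 238 CPM in shTrem2, a log2 fold change of 0.80 (SE 0.0531, adjusted p = 3.46e-08). Plk1, the Polo-like kinase needed for spindle assembly and mitotic entry, showed the largest change of these 8 genes. Its level went from 49.3, 42.7 and 49.8 CPM to 93.1, 91.5 and 94.7 CPM, a log2 fold change of 0.98 (SE 0.0636, adjusted p = 2.89e-08). Aurka, the Aurora kinase of spindle poles, had 48.8, 41.5 and 52.5 CPM against 80.6, 80.5 and 92.6 CPM, with a log2 fold change of 0.83 (SE 0.0829, adjusted p = 1.62e-06). The lowest shTrem2 library of Aurka was far above its highest shNC library. The phosphatases that activate CDK1 stood at the lower end of the group. Cdc25b was higher by a log2 fold change of 0.50 and Cdc25c by 0.44 (SE 0.076, adjusted p = 2.44e-04), both under the 1.5-fold limit. Cdc25c had 19.1 ± 0.278 CPM under shNC and 25.9 ± 1.23 CPM under shTrem2 (mean ± SD, n = 3, as in all such values here).

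Of the 5 genes of the spindle checkpoint, which holds cells before anaphase, 2 rose, and the median of the 5 log2 fold changes was 0.57. Bub1, a kinetochore kinase that recruits the other checkpoint proteins, had 99.1, 94.7 and 94.7 CPM in shNC and 165, 163 and 172 CPM in shTrem2. These groups were tight and well separated, with a log2 fold change of 0.79 (SE 0.0469, adjusted p = 1.29e-08). Ttk, which encodes the kinase MPS1 at the top of the checkpoint, rose by 0.77 from 36.9 ± 4.29 to 63.0 ± 1.26 CPM. Mad2l1, whose product MAD2 binds and blocks CDC20, was just under the limit. Its values were 76.0, 66.8 and 74.1 CPM in shNC and 109, 100 and 112 CPM in shTrem2, a 1.48-fold difference (log2 0.57, SE 0.0622, adjusted p = 3.92e-06). Bub1b, which encodes BUBR1 of the mitotic checkpoint complex, was higher by a log2 fold change of 0.53. Bub3, the partner of BUB1 and BUBR1, differed least in this group, at 127, 128 and 137 CPM against 160, 163 and 171 CPM and a log2 fold change of 0.34 (SE 0.0487, adjusted p = 5.10e-05). For Bub3 the gap between the highest shNC and the lowest shTrem2 library was still larger than the range within either group.

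Of the 4 genes that carry the cell out of metaphase, 2 rose, and their median log2 fold change was 0.49. Cdc20, the activator of the anaphase-promoting complex (APC/C) in mitosis, had 61.8, 54.7 and 67.8 CPM in shNC and 106, 100 and 110 CPM in shTrem2. It rose by a log2 fold change of 0.78 (SE 0.0711, adjusted p = 6.95e-07) with no overlap. Espl1, which encodes separase, had 81.0, 73.9 and 77.6 CPM against 120, 121 and 119 CPM, a log2 fold change of 0.63 (SE 0.0506, adjusted p = 2.01e-07). In FPKM its log2 ratio was larger, at 1.28. Pttg1, which encodes securin, the inhibitor of separase, stood at 55.5, 54.0 and 56.7 CPM against 72.6, 72.3 and 67.8 CPM. That difference was 1.28-fold (log2 0.36, SE 0.0554, adjusted p = 9.59e-05). Ube2c, the ubiquitin-conjugating enzyme that works with the APC/C, was also only modestly higher, from 71.0 ± 2.88 to 87.9 ± 3.91 CPM with a log2 fold change of 0.31 (adjusted p = 3.32e-04). The promoters of Cdc20, Espl1 and Ube2c each hold a CCAAT box followed by a CHR close to the start site, although Cdc20 and Espl1 rose and Ube2c did not pass the fold limit.
Cdc20 (chr4:118437344-118437443, minus strand): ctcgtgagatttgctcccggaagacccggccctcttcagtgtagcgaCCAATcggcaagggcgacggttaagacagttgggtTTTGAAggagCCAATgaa
Espl1 (chr15:102296193-102296292, plus strand): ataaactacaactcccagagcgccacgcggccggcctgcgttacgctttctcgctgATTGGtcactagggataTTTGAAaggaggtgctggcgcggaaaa
Ube2c (chr2:164769829-164769928, plus strand): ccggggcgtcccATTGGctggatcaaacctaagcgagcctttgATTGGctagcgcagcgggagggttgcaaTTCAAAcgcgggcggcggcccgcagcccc
The CHR begins at base -18 in Cdc20, -27 in Espl1 and -29 in Ube2c, and the nearest CCAAT box before it begins 35, 17 and 28 bases further upstream.

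The chromosomal passenger complex corrects wrong attachments and later acts in cytokinesis, and 2 of its 4 subunits rose, with a median log2 fold change of 0.59. Birc5, which encodes survivin, rose most, from 45.4, 44.4 and 48.0 CPM to 81.6, 82.5 and 89.5 CPM (log2 fold change 0.88, SE 0.0596, adjusted p = 4.18e-08). Cdca8, which encodes borealin, rose by 0.66. Incenp, the scaffold of the complex, was higher by 0.53, or 1.44-fold, from 172 ± 3.95 to 248 ± 7.03 CPM. Aurkb, its kinase, had 84.2, 74.0 and 71.3 CPM in shNC and 91.9, 92.0 and 92.4 CPM in shTrem2. The first shNC library came nearest to the shTrem2 values without reaching them, and the log2 fold change of Aurkb was 0.27 (SE 0.0621, adjusted p = 0.00212). The difference in change between Birc5 and Aurkb was not tested.

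Centromere and kinetochore genes spanned the widest range within a role except for the kinesins, with 3 of 6 risen and a median of 0.83 on the log2 scale. Ndc80 and Nuf2 encode the paired subunits of the NDC80 complex that grip the microtubule, and both more than doubled. Ndc80 had 33.9, 33.2 and 41.0 CPM in shNC and 71.4, 85.6 and 78.1 CPM in shTrem2 (log2 fold change 1.12, SE 0.0863, adjusted p = 1.43e-07). Nuf2 had between 48.8 and 54.6 CPM in shNC and 106, 108 and 118 CPM in shTrem2 (1.11, SE 0.0629, adjusted p = 8.08e-09). Spc25, a subunit of the other end of the same complex, was higher by only 0.54, or 1.45-fold. The table also lists 2700099C18Rik, named as a copy of Ndc80, with 11.0 ± 1.69 CPM under shNC and 13.8 ± 1.84 CPM under shTrem2 and overlapping groups. Reads that fit both could have been split between them, so the level of Ndc80 is uncertain. Cenpf, a large kinetochore and nuclear matrix protein of G2 phase, had 103, 106 and 117 CPM against 235, 232 and 235 CPM, a log2 fold change of 1.10 (SE 0.0518, adjusted p = 1.52e-09). Its lowest shTrem2 library was close to 2 times its highest shNC library. Cenpe, the kinesin-like motor of kinetochores, was higher by 0.56. Cenpa, the histone H3 variant that marks centromeres, differed least of all 40 genes on counts. It had 109, 103 and 112 CPM against 132, 122 and 130 CPM and a log2 fold change of 0.25 (SE 0.0515, adjusted p = 0.00107). In FPKM its log2 ratio was 0.27, and Aurkb (0.18) and Kif18a (0.22) differed less. The promoter of Nuf2 is printed because Nuf2 more than doubled while none of the letters searched is in its window.
Nuf2 (chr1:169531465-169531564, minus strand): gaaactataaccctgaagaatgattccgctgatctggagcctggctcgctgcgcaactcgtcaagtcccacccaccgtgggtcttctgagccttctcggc

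Mitotic kinesins, the motors that build and reshape the spindle, rose for 5 of 6 genes, and the median log2 fold change was 0.85. Kif20a, the motor that brings Polo-like kinase to the central spindle, had 63.7, 58.9 and 74.1 CPM in shNC and 169, 158 and 181 CPM in shTrem2. No other member changed as much (log2 fold change 1.37, SE 0.0761, adjusted p = 7.14e-09). Kif11, which encodes the motor Eg5 that pushes spindle poles apart, had 70.8, 76.4 and 79.2 CPM against 150, 151 and 159 CPM (1.02, SE 0.0535, adjusted p = 4.22e-09). Its groups were also separated by nearly the whole level of shNC. Kif4, a chromosome-bound kinesin that also organizes the midzone, rose by 0.97, Kif2c, the microtubule-depolymerizing kinesin MCAK, by 0.74 and Kif23, a subunit of centralspindlin, by 0.64. Kif18a, which dampens chromosome movements at metaphase, was the exception. It stood at 28.1, 25.5 and 25.8 CPM against 33.1, 31.7 and 31.0 CPM, a 1.21-fold difference (log2 0.27, SE 0.0699, adjusted p = 0.00456). The promoter of Kif11 is shown for its CHR, which begins 26 bases after the start of a CCAAT box.
Kif11 (chr19:37376282-37376381, plus strand): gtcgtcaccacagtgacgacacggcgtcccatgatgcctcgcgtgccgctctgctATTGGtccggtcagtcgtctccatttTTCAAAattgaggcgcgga

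Genes for bundling of spindle microtubules and for cytokinesis were the one role with more than 2 genes in which all rose, 5 of 5. Their median was 0.88 on the log2 scale, and their range, 0.73 to 1.00, was the narrowest of those roles. Nusap1, a microtubule-bundling protein near chromosomes, went from 51.7, 49.8 and 57.8 CPM to 105, 112 and 103 CPM (log2 fold change 1.00, SE 0.0637, adjusted p = 2.32e-08). Prc1, the crosslinker of antiparallel microtubules in the midzone, had 94.8, 88.5 and 103 CPM against 166, 183 and 178 CPM (0.88, SE 0.0595, adjusted p = 4.03e-08). Anln, which encodes anillin, the scaffold of the contractile ring, had 166, 153 and 175 CPM against 291, 304 and 292 CPM (0.85, SE 0.0525, adjusted p = 1.94e-08). In each of these genes the lowest shTrem2 library exceeded the highest shNC library by more than 1.5 times. Ect2, the exchange factor that activates RhoA at the cleavage site, rose by 0.89 from 59.4 ± 2.15 to 110 ± 0.754 CPM. Tpx2, which activates Aurora A and nucleates microtubules, rose by 0.73 from 133 ± 10.6 to 221 ± 7.18 CPM.

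Both genes of mitotic chromosomes rose. Mki67, which encodes the proliferation marker Ki-67 that coats mitotic chromosomes, had 459, 444 and 512 CPM in shNC and 821, 787 and 844 CPM in shTrem2 (log2 fold change 0.79, SE 0.0555, adjusted p = 5.74e-08). Top2a, the topoisomerase that disentangles sister chromatids, had 442, 407 and 446 CPM against 674, 674 and 703 CPM (0.66, SE 0.0479, adjusted p = 7.75e-08). The groups overlapped for neither gene. The promoter of Top2a is printed for its 3 CCAAT boxes within 100 bases, with starts 20 bases apart, and a CHR that begins 35 bases after the start of the last of them.
Top2a (chr11:99024190-99024289, minus strand): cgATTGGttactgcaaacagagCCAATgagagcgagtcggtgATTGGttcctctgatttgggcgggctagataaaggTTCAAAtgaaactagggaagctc

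**Figure D2:**
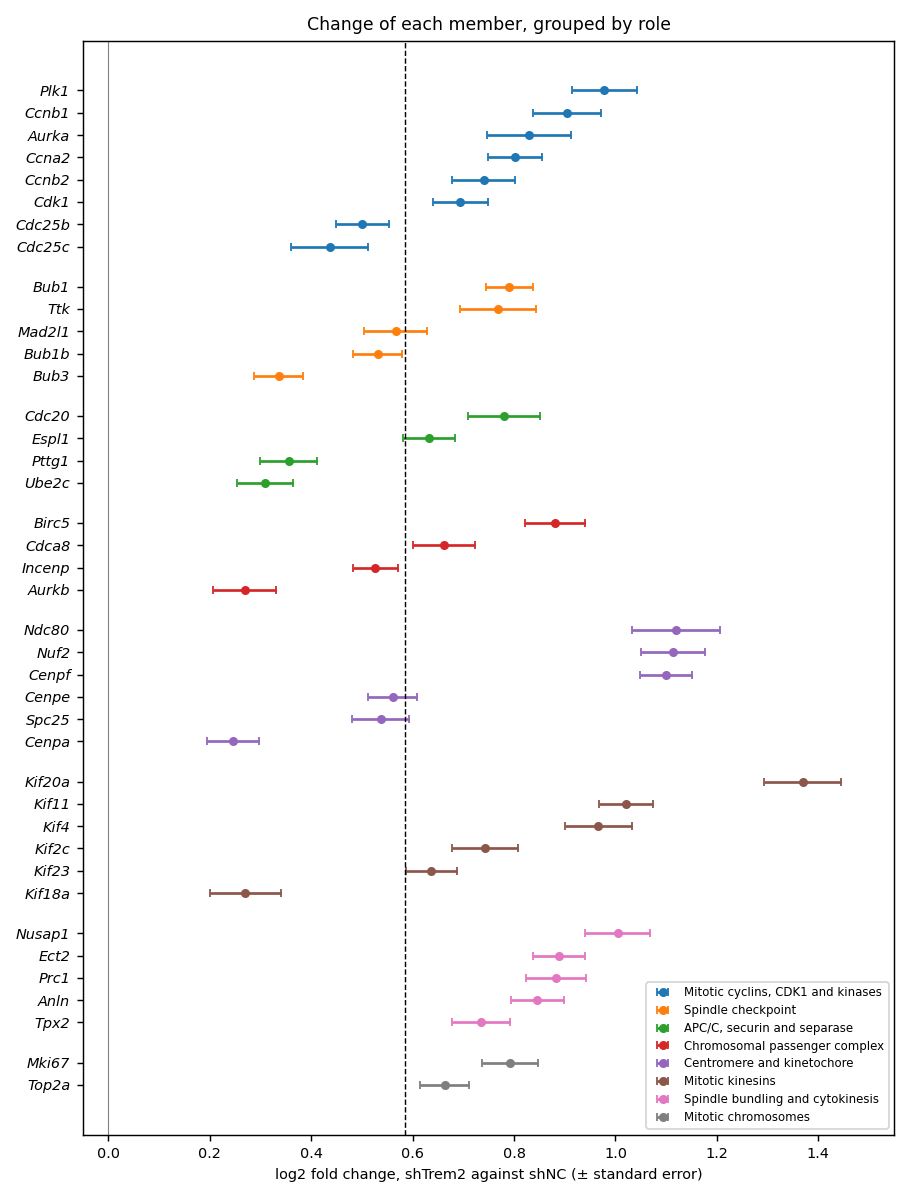
Log2 fold change of each member (point) with its standard error (bar) from edgeR, grouped by role, where the dashed line marks a 1.5-fold difference. All 40 points lie to the right of 0, 27 lie beyond the dashed line, and 6 (Kif20a, Ndc80, Nuf2, Cenpf, Kif11 and Nusap1) exceed 2-fold.

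A change above 2-fold was found for 6 members, 3 of the kinetochore, 2 kinesins and Nusap1, while 3.62% of all tested genes rose by that much. On counts, Espl1 at 0.63 and Kif23 at 0.64 lay just above the 1.5-fold limit and Mad2l1 at 0.57 and Cenpe at 0.56 just below. The coefficient of variation among the 3 libraries had a median over members of 6.12% in shNC (range 0.835% to 12.1%) and 3.48% in shTrem2 (0.253% to 9.10%). Summed over the 40 genes, the level was 3961, 3777 and 4175 CPM in shNC and 6524, 6453 and 6678 CPM in shTrem2, a ratio of the means of 1.65. Among the shNC libraries, replicate 2 was lowest for 30 members and replicate 3 highest for 30. Among the shTrem2 libraries, replicate 3 was highest for 22 and replicate 2 lowest for 20. Without shNC replicate 2 the median log2 fold change of the members was 0.69, and without shNC replicate 3 it was 0.80, so these libraries moved the size and not the direction.

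Levels between genes can be compared only per transcript length, for which the deposited FPKM values (fragments scaled to transcript length and library size) were used. On that scale Cdk1 was the most abundant of the members in shNC, at 160 ± 30.5 FPKM, followed by Pttg1 at 140 ± 3.78, Top2a at 127 ± 7.22, Cenpa at 126 ± 15.7 and Ube2c at 110 ± 4.27. Cdk1 and Pttg1, Top2a and Cenpa, and Cenpa and Ube2c, neighbours in this order, did not differ beyond their spread. At the other end stood Kif4 at 8.43 ± 0.902 and Kif18a at 8.79 ± 0.442 FPKM, which also did not differ beyond their spread. Across the 40 members the log2 fold change from counts fell with the log2 FPKM level in shNC (Pearson's r = -0.42, Spearman's rho = -0.43, n = 40 genes measured in the same 6 libraries, as a description). The shNC level enters both quantities with opposite sign, so this correlation cannot show a dependence on abundance. Among the 5 most abundant, Cenpa, Ube2c and Pttg1 were among the members that changed least.

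The FPKM table gave the same direction for all members, with exceptions in size. In 38 of the 40 the shTrem2 libraries again lay above the shNC libraries. The share of all genes with that separation was 32.1% on counts and was not computed for FPKM. For Aurkb the groups overlapped, with 58.3 ± 8.29 against 65.9 ± 2.81 FPKM, as they did for Cenpa, with 126 ± 15.7 against 152 ± 15.4 FPKM. The log2 ratio of mean FPKM followed the log2 fold change from counts across members (r = 0.91, rho = 0.92, n = 40 genes, on the same libraries). It differed by more than 0.2 for Cdk1 and Espl1. For Cdk1 the shTrem2 libraries had 223, 204 and 223 FPKM, and the log2 ratio was 0.44 in place of 0.69. Its first shNC library was the high one. Espl1 had a log2 ratio of 1.28 in FPKM in place of 0.63 in counts.

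**Figure D3:**
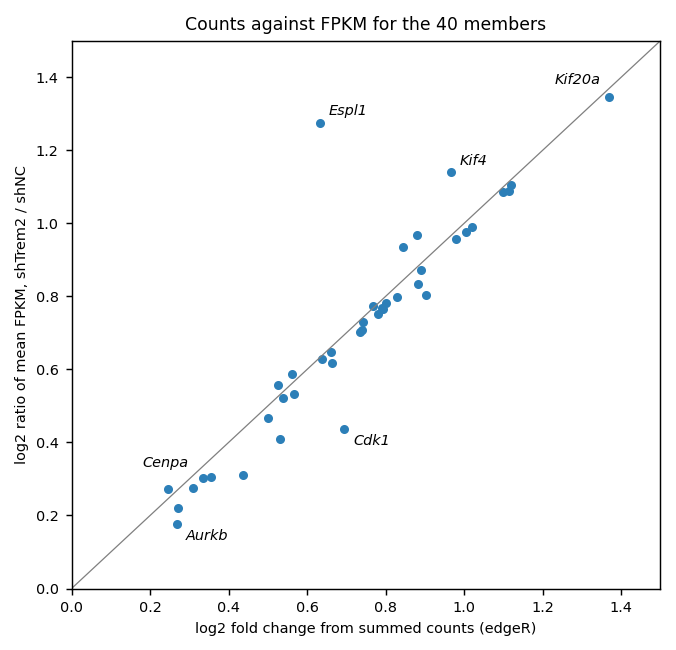
Log2 fold change from summed counts (horizontal) against the log2 ratio of mean FPKM (vertical) for the 40 members, with the line of equal values. Points lie near the line except Espl1, above it at 1.28 in FPKM, and Cdk1, below it at 0.44.

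The count table has 1 row per transcript, so the members could be followed below the level of the gene. In 18 of the 40 a single row held more than 90% of the gene's counts in both groups. Summed per gene, 32.1% of all tested genes were higher in all shTrem2 libraries, and no such share was computed for rows. The largest row in shNC was higher in all shTrem2 libraries for 39 members. The exception was Cenpa, whose largest of 10 rows had 62.7 ± 3.28 CPM in shNC and 65.8 ± 4.44 CPM in shTrem2 with overlapping groups. Another Cenpa row went from 14.9 ± 0.233 to 29.9 ± 2.76 CPM, with no overlap, and its share of the gene from 13.8% to 23.3%. In Espl1 the main row went from 53.5 ± 4.04 to 98.5 ± 5.91 CPM and from 69.2% to 82.1% of the gene, while the next row had 21.9 ± 5.59 and 17.5 ± 6.32 CPM with overlapping groups. Among rows that reached 10 counts in at least 1 library, only Aurkb had one that was lower in all shTrem2 libraries. It was a minor row of 0.664 ± 0.322 against 0.337 ± 0.121 CPM. Its lowest shTrem2 library, at 0.208 CPM, was near the limit of 3 counts. Counts on rows of 1 gene are estimates that share reads, and no test was made on them.

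Genes outside the 40 that act in the same processes were read from lists of their roles, and each count is to be read against the 9.46% of all tested genes called higher and the 12.4% called lower. Of 38 other kinetochore and centromere genes, 23 rose and none was called lower, with a median log2 fold change of 0.60. The largest changes there were those of Pmf1 of the MIS12 complex (1.04), Spc24 of the NDC80 complex (0.86), Cenpq of the inner kinetochore (0.85) and the checkpoint scaffold Knl1 (0.83). Of 20 cohesin and condensin genes, 10 rose and none was called lower (median 0.60), with Ncapg2 at 1.04, Smc3 at 0.81, Ncapd2 at 0.80 and Ncapg at 0.74. Of 32 genes of the G1/S transition and DNA replication, 23 rose and none was called lower, and their median of 0.73 was close to that of the 40 mitotic genes. Tyms (1.38), which makes thymidylate, Pola1 (1.26), the replicative polymerase that carries primase, and the helicase subunits Mcm5 (1.16) and Mcm7 (1.10) led that list. Summed, the 32 went from 2082 ± 44.8 to 3727 ± 282 CPM.

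Of 22 further APC/C and mitotic exit genes, 4 (18.2%, against 9.46% of all tested genes) rose and none was called lower, with a median of 0.29. These 4 were Anapc5 (1.05), the APC/C inhibitor Fbxo5 (0.90), the kinase Mastl (0.87), which restrains the phosphatase PP2A in mitosis, and Anapc1 (0.67). Of 9 further cytokinesis genes 2 (22.2%) rose, Racgap1 of centralspindlin (0.85) and Arhgap11a (0.71), and the median was 0.21. Of 34 other kinesin, spindle and centrosome genes 13 (38.2%) rose and 2 were called lower, with a median of 0.48. Fam83d rose by 1.10, Kif20b by 0.89 and the centrosomal kinase Nek2 by 0.87. The 2 lower genes were Psrc1, a spindle protein, which fell by 1.93 (log2), with 211 CPM under shNC and 55.2 CPM under shTrem2 (adjusted p = 9.47e-11), and Haus2 of the augmin complex, which fell by 0.71.

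**Figure D4:**
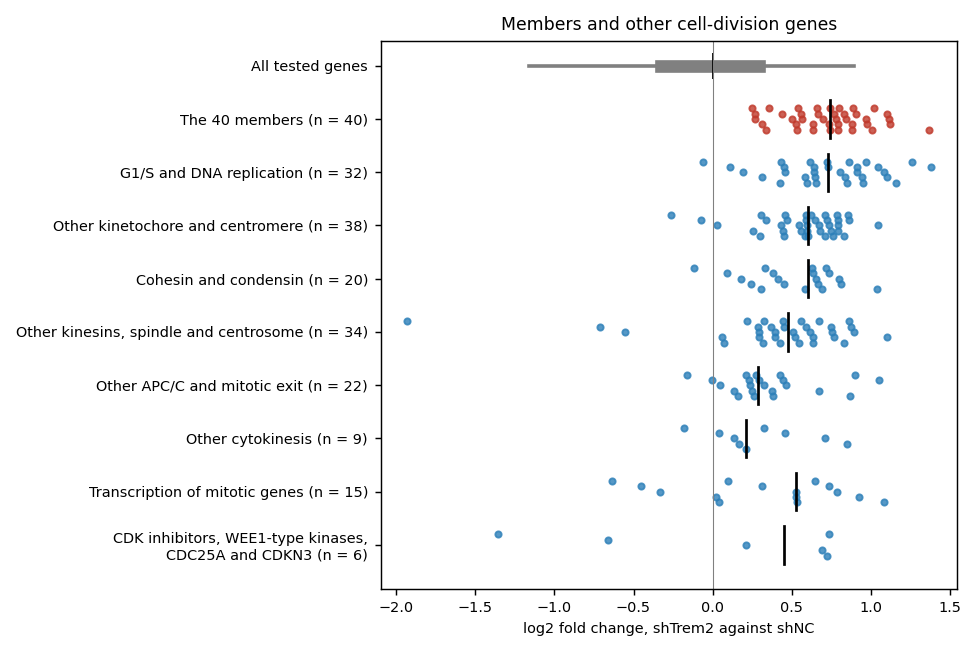
Log2 fold change of each tested gene (point) in the 40 members and in 8 lists of related genes, with the median of each as a black line. For all tested genes the thick bar spans the 25th to 75th and the thin bar the 5th to 95th percentile, and the medians of the members (0.74) and of the G1/S and replication genes (0.73) lie near one another and above that thick bar.

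Regulators of CDK activity moved in both directions. Cdkn1a, which encodes the CDK inhibitor p21, fell by 1.36 (log2), with 430 ± 28.9 CPM under shNC and 168 ± 8.39 CPM under shTrem2 (SE 0.0569, adjusted p = 6.30e-10), and Cdkn1b, which encodes p27, fell by 0.66 from 89.2 ± 3.64 to 56.5 ± 4.61 CPM. The groups overlapped for neither of these. The kinases that hold CDK1 inactive rose, Wee1 by 0.72 and Pkmyt1 by 0.73, as did the CDK phosphatase Cdkn3 by 0.69. Cdc25a, the activating phosphatase of the G1/S transition, had 36.0 ± 1.88 and 41.8 ± 3.76 CPM with a log2 fold change of 0.21. Wee2 was not tested because of its low counts.

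Of 15 genes for factors that transcribe or silence mitotic genes, 5 rose (33.3%, against 9.46% of all tested genes) and 1 was called lower. Foxm1, the activator of G2 genes, rose by 0.78 from 71.0 ± 3.26 to 122 ± 2.88 CPM (SE 0.0521, adjusted p = 3.51e-08). The NF-Y subunit gene Nfyc rose by 1.08, whereas Nfya and Nfyb had log2 fold changes of 0.02 and 0.04 with overlapping groups. Rbl1, which encodes p107, rose by 0.92, the MuvB subunit gene Lin9 by 0.73 and the E2F partner Tfdp1 by 0.64. Other MuvB and B-MYB genes did not reach 1.5-fold, with log2 fold changes of 0.53 for Mybl2, Lin52 and Rbbp4, 0.31 for Lin54 and -0.33 for Lin37. The repressive partners, p107 among them, moved in both directions. Rbl1 rose by 0.92, whereas E2f5 fell by 0.64, Rbl2, which encodes p130, had -0.45 and E2f4 had 0.10.

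Promoters of the members were read together as a description of sequence. RefSeq promoters, 250 bases before to 50 bases after the start site, were given for 34 of the 40 members, 37 promoters in all, and not for Ccna2, Cdc25c, Aurkb, Incenp, Kif20a and Tpx2. A CHR match (TTTGAA or TTCGAA on either strand) was in 78.4% of the 37, against 19.2% of all 32851 mouse promoters in that table. CCAAT on either strand was in 75.7% against 37.4%, and 2 or more CCAAT boxes were in 51.4% against 11.7%. Both motifs were in 70.3% of the member promoters and 7.52% of all. These shares count overlapping promoters of the same gene, here of Bub3, Ect2 and Prc1, separately. By gene, both motifs were in 23 of 34 members and in 2328 of all 27025 genes. Neither motif was in 16.2% of the member promoters and 50.9% of all, and the 6 members without either were Birc5, Kif18a, Mad2l1, Nuf2, Nusap1 and Pttg1. In 24 of the 26 members with a CHR match, a match began within 50 bases of the start site.

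The median over the 23 members with both motifs was 0.74 (log2), from 0.25 for Cenpa to 1.10 for Cenpf. Over the 6 with neither it was 0.72, from 0.27 for Kif18a to 1.11 for Nuf2. The other members with a promoter held 1 motif only, and their log2 fold changes were 0.56 for Cenpe, 0.74 for Kif2c, 0.85 for Anln, 0.90 for Ccnb1 and 1.12 for Ndc80. No test of a difference between these sets was made. Cdk1, Cdc20, Ube2c, Espl1, Kif11 and Top2a, whose printed promoters hold both, ranged from 0.31 to 1.02. A match is only a run of letters, and binding of any factor was not measured.

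**Figure D5:**
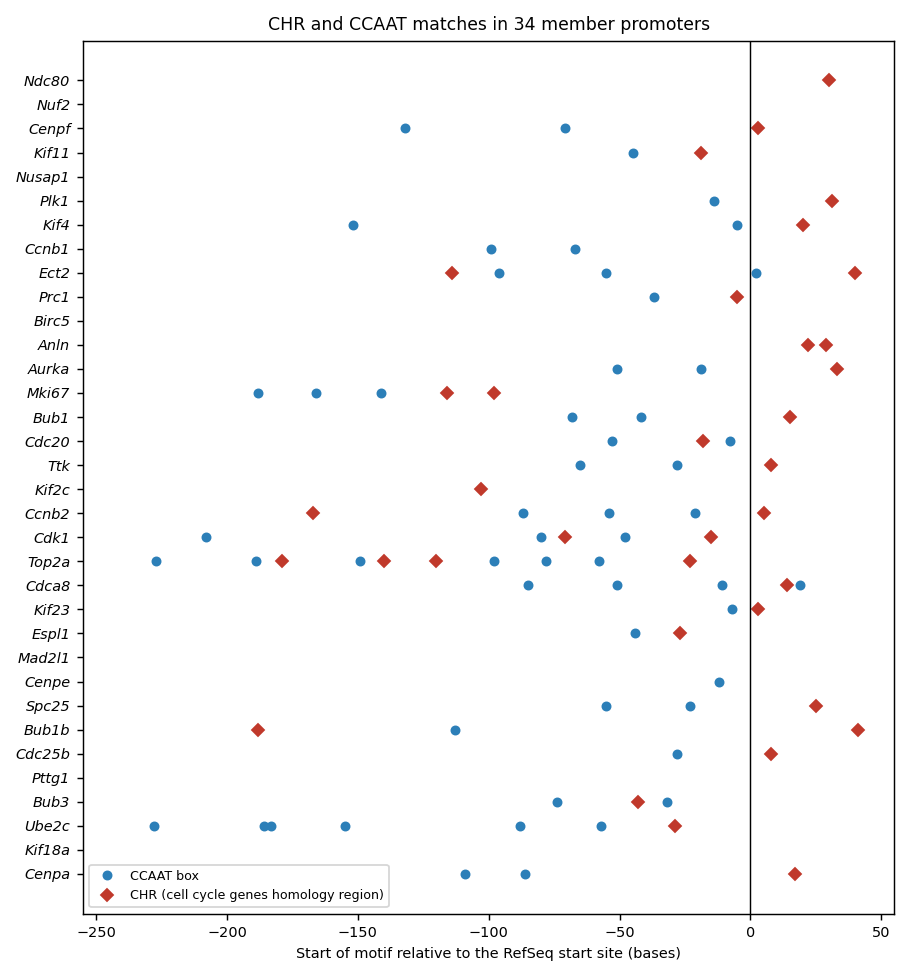
Starts of CCAAT (circles) and CHR (diamonds) matches relative to the RefSeq start site (0, vertical line) in the first listed promoter of 34 members, ordered from the largest log2 fold change at the top to the smallest at the bottom. CCAAT boxes lie mostly upstream, CHR matches mostly within 50 bases of the start site, and rows without symbols, such as Nuf2 near the top and Kif18a near the bottom, occur at both ends.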

How the data were processed

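The members and the gene lists were chosen with earlier results of these data known. Per the paper's methods and the submitters' processing notes, the authors used fastp for trimming, HISAT2 for alignment to GRCm39 and StringTie for transcript assembly. The counting tool and annotation release are not given in the sources used here. The authors deposited estimated counts per transcript (81.6% of nonzero values were not whole within 0.005) and FPKM per gene. Estimated counts were summed per symbol and rounded. Rows without a symbol held 0.908% to 1.12% of counts and were left out. The limit behind a zero, 3 counts, equals 0.153 to 0.189 CPM and covers counting error only.

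Groups were taken from the labels. The test was edgeR 4.0.16 (TMM, filterByExpr, quasi-likelihood, R 4.3.3) over all 13528 genes passing the filter, without covariates, with Benjamini-Hochberg adjustment. Genes with FDR under 0.05 and a fold change over 1.5 were called. SEs are log2 fold changes divided by the root of the F statistic. CPM used TMM-scaled library sizes. The scripts were tested on simulated data. All members were named, with fuller values for a selection of genes in each role. Of each related list, a selection of genes was named. Promoters came from RefSeq (GRCm38.p6), a different build from the authors'. Alternatives were other normalizations, filters and thresholds, DESeq2 1.42.0, limma 3.58.1 on counts and on log2(FPKM + 1) or log2(FPKM + 0.1), a replicate block and each library left out.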

Additional observations from a re-analysis of the deposited data

How the results depend on the processing

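At the same thresholds, no member changed direction in any of 16 alternative fits, and 26 of the 27 risen members kept the call in all of them. The exception was Cdk1, which fell under the 1.5-fold limit in both limma fits on FPKM (lowest log2 fold change 0.45). Cenpe and Mad2l1 passed the limit in some. An adjusted p above 0.05 occurred only in those FPKM fits, at 0.163 and 0.161 for Aurkb, 0.0648 and 0.0632 for Cenpa and 0.0706 and 0.0688 for Kif18a. The 2951 genes called became 1339 at a fold change over 2, 7763 with no fold threshold and 1515 with glmTreat against 1.5-fold, and the 27 members became 6, 40 and 22. Leaving out each library gave 2789 to 3105 genes, 27 to 29 members, a median log2 fold change of the members of 0.694 to 0.798 and of the spindle checkpoint genes of 0.503 to 0.613. DESeq2 called 2785 genes, of which 2779 were shared, and 27 members. Scaling by library size only gave 39.0% of called genes higher in place of 43.4%, and a median of 0.707 for the members. Same-numbered libraries did not deviate together (correlations -0.00441 to 0.00657). With the replicate block, 2911 genes and 27 members were called and the median was 0.743. Counting error was not separated from the spread between libraries, and it weighs most on members with few counts, the lowest at 311. Values of single transcript rows rest on estimates.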
